A study of Mus musculus with 4 samples.

Results

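The endothelin and adrenomedullin systems were followed across the glomeruli of male mice through 10 genes: the ligands Edn1, Edn3 and Adm, the receptors Ednra, Ednrb and Calcrl, the endothelin-converting enzyme Ece1, and the receptor activity-modifying proteins Ramp1, Ramp2 and Ramp3. They were found by gene symbol on an Affymetrix mouse 3' expression array, where a probe set is a group of short probes read as a single intensity. Of the 10 genes, 9 had a probe set annotated to that gene alone (21 probe sets in all, among 18193 genes with such a probe set), and Ednra, the endothelin A receptor, was not analysed here. The probe set with the highest mean log2 value stood for its gene, so the main values were selected on brightness over the 4 arrays, and the genes themselves were chosen by earlier measured differences between these arrays. The differences below are therefore descriptions.

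RNA came from 4 groups with 1 array each. GC-A KO mice (written KO) lacked guanylyl cyclase A, which Npr1 encodes and through which atrial and B-type natriuretic peptides act, in all tissues, and wild-type (WT) mice were their reference. Every mouse had a kidney removed. Under the ALDO treatment mice had aldosterone infused under the skin with a 6% salt diet for 3 weeks, and under the control treatment they had 2% ethanol infused with a normal diet. The groups were KO ALDO, WT ALDO, KO control and WT control. The sources used here do not say whether an array held RNA of a single mouse or of a pool, nor the strain or age of the mice. With 1 array per group no difference has a replicate error or a test, and precision is limited by the number of arrays.

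Endothelin-1, made from the Edn1 precursor by furin-like proteases and then by the membrane protease encoded by Ece1, constricts vessels through the endothelin A receptor. The endothelin B receptor, encoded by Ednrb, sits on endothelial cells, where it releases nitric oxide and clears the peptide, and on tubule cells, where it promotes salt excretion; endothelin-3, from Edn3, binds it about as well as endothelin-1. Adrenomedullin, from Adm, is a vasodilator peptide of endothelial cells, smooth muscle and other cells, and its gene responds to hypoxia, stretch and inflammation. Its receptor is the product of Calcrl together with RAMP2 or RAMP3, while Calcrl with RAMP1 binds calcitonin gene-related peptide.

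Ednrb and Adm were the genes of these systems that passed 2-fold, and Edn1 was the other ligand higher in both genotype comparisons, so their upstream sequences are shown. Each is the 250 bases before the gene's start from RefSeq on GRCm38.p6, printed in lower case with motif matches in capitals. Adm is read from the plus strand at chr7:110627407-110627656, Ednrb from the minus strand at chr14:103843702-103843951 and Edn1 from the plus strand at chr13:42301226-42301475.
Adm: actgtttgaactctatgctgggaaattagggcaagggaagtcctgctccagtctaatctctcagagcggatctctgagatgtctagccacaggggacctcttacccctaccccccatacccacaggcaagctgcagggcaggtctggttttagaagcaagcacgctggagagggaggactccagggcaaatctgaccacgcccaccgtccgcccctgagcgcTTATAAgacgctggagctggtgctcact
Ednrb: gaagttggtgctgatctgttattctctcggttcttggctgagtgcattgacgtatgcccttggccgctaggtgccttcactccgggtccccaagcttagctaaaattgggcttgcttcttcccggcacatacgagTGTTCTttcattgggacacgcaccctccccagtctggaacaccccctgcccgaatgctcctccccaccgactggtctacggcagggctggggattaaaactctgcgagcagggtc
Edn1: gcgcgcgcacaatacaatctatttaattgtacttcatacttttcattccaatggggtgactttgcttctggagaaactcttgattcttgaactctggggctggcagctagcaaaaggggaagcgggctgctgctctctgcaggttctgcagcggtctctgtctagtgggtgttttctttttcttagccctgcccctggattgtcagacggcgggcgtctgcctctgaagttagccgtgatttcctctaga
Both strands were searched for 4 short motifs: ACGTG, the core of the hypoxia response element, AGAACA, a half-site of the corticosteroid response element, TGANTCA, the AP-1 site, and TATAA, the core of the TATA box. Of 32851 RefSeq windows of the same length, 16.6% held ACGTG, 16.1% the half-site, 6.75% the AP-1 site and 22.8% the TATA box core. The capitals in Adm mark a TATA box core that matches on both strands with overlap, and those in Ednrb mark a half-site on the reverse strand. The Edn1 window held none of the 4. Among all 12 windows of 9 of these genes, Ednra included, ACGTG was found in 1 (Ece1), AGAACA in 2 (Ednrb and another start of Ece1), TATAA in 1 (Adm) and TGANTCA in 0. A match is only a match of letters, and its absence says nothing beyond this window.

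The arrays had been scaled before deposit to a common mean (500.003 after trimming 2% at each end), with medians between 89.5 and 103. The 9097 genes with the highest mean log2(intensity + 16), 50% of all, are called the brighter genes here; their low end lies at an intensity of about 247. Of the 9 genes, 8 were among them. Edn3 and Edn1 had the lowest mean log2 values inside that limit (8.23 and 8.29), and Ramp1 lay outside it at 6.50. Npr1 itself read 23.4 in KO ALDO, 60.5 in WT ALDO, 108 in KO control and 92.6 in WT control, all dim, and the place of its probe set relative to the deleted part is not given, so it did not check the genotype labels. Of 12 podocyte markers 10 had a probe set, and all 10 were among the brighter genes. Their summed intensity was 39039 in KO ALDO, 35099 in WT ALDO, 32337 in KO control and 31830 in WT control. All 8 proximal tubule markers were among the brighter genes, as were all 6 of the thick limb and distal tubule, so tubular transcripts were in the RNA too. The sum of those 6 was 81098, 74019, 75298 and 71447 in the same order of arrays. How much of each value here came from tubule cells was not tested. Of the proximal tubule markers 7 of 8 were below 0 in KO against WT under ALDO (median -0.32, where 55.4% of all genes were above 0). The same number was below 0 under control treatment (median -0.25, where 53.1% of all genes were above 0). The summed intensity of the proximal tubule markers was 100162 in KO ALDO, 115682 in WT ALDO, 108258 in KO control and 122021 in WT control. Their part in the KO against WT differences given here was not tested. Signals of 21 probe sets for spiked-in RNA were lower on the ALDO arrays, by a median log2 difference of -0.20 in KO and -0.16 in WT, and were close to 0 between genotypes (0.03 under ALDO and 0.05 under control treatment). The ratio of 3' to 5' signal of beta-actin, a sign of RNA quality, was 1.61 in KO ALDO, 1.87 in WT ALDO, 1.67 in KO control and 1.86 in WT control, and that of GAPDH was 0.744, 0.778, 0.741 and 0.785 in the same order of arrays. Both ratios were lower in the KO arrays, and their part in the KO against WT differences was not tested.

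**Figure D1:**
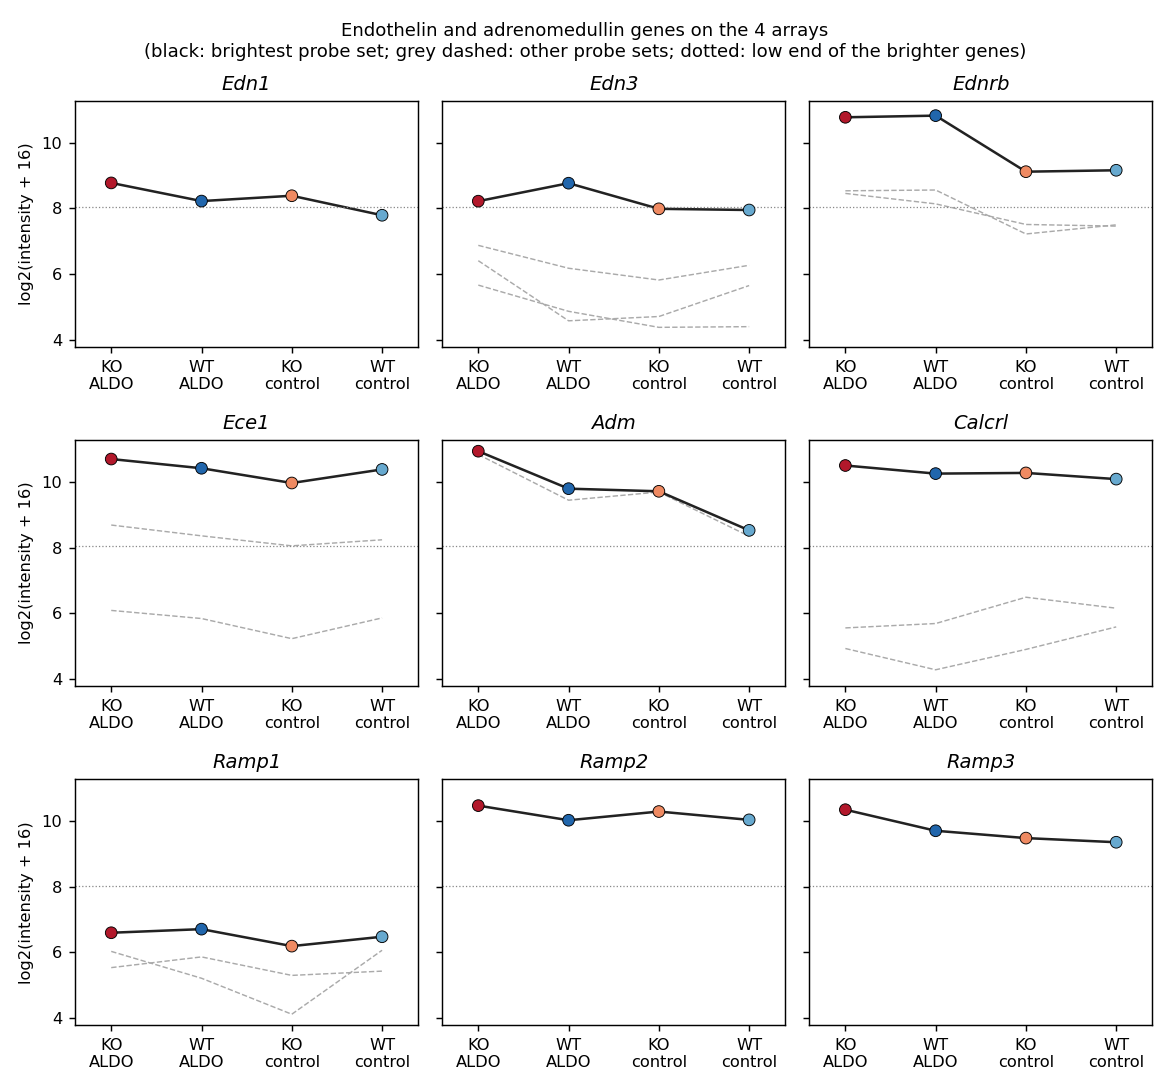
Each panel plots log2(intensity + 16) of a gene on the KO ALDO, WT ALDO, KO control and WT control arrays, with the brightest probe set in black, the other probe sets in grey and the low end of the brighter genes (8.04) dotted. Adm steps down from the KO ALDO array to the WT control array, with KO control and WT ALDO between them, while Ednrb splits into high ALDO arrays and low control arrays.

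Adm was the gene that differed most over the 4 arrays. Its brightest probe set read 1944 in KO ALDO, 873 in WT ALDO, 825 in KO control and 352 in WT control. KO ALDO was highest and WT control lowest, and the arrays with either the knockout or the treatment lay close together between them. Its range of 2.41 on the log2 scale ranked 13 among the 9097 brighter genes, whose median range was 0.32. Adm was higher in KO than in WT under ALDO (log2 difference 1.14, or 2.21-fold on the intensity + 16 scale) and under control treatment (1.19, or 2.28-fold). It was also higher under ALDO than under control treatment in KO (1.22, or 2.33-fold) and in WT (1.27, or 2.41-fold).

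The brightest probe set of Adm is of the type marked x_at, whose probes may also bind other transcripts. Adm has another bright probe set, not of that type, which gave the same order at both ends. It read 1812 in KO ALDO, 680.4 in WT ALDO, 812 in KO control and 309 in WT control. Here KO control was above WT ALDO, and its KO against WT differences were 1.39 under ALDO and 1.35 under control treatment. Its ALDO against control differences were 1.14 in KO and 1.10 in WT. Both probe sets see the same RNA, so they check the probes and not the spread between mice. The difference of the ALDO effects, KO minus WT, was -0.05 with the first probe set and 0.04 with the second, so that on these arrays the difference with treatment was about as large in either genotype.

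Adm was the single gene of the 8 brighter ones here that was 2-fold or more higher in KO than in WT under ALDO, where 1.26% of the 9097 brighter genes were, and again under control treatment, where 0.967% were. Because the genes were chosen with these results known, nothing is read from those shares. Under ALDO the difference was 0.9992, just short of 2-fold, when each array was centred on its median.

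Edn1, the precursor of the vasoconstrictor peptide, had smaller differences in the same directions. It read 422 in KO ALDO, 283 in WT ALDO, 318 in KO control and 205 in WT control. As for Adm, KO ALDO was highest and WT control lowest. Its log2 difference between KO and WT was 0.55 under ALDO and 0.59 under control treatment. Between ALDO and control it was 0.39 in KO and 0.43 in WT, and the difference of these effects was -0.04. Edn1 had a single probe set, and its WT control value lay under the low end of the brighter genes. At 1.5-fold or more, Adm and Ramp3 were higher in KO than in WT under ALDO (2 of 8, beside 6.55% of the brighter genes), with Edn1 just under that size, and Adm and Edn1 were under control treatment (2 of 8, beside 3.83%). Ramp3 lost that size under ALDO with median centring (0.50), and Edn1 lost it under control treatment with median centring (0.49), quantile normalization (0.52) and a pseudocount of 64 (0.50).

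Edn3, whose peptide acts mainly through the endothelin B receptor, gave no settled picture. Its brightest probe set read 282 in KO ALDO, 419.8 in WT ALDO, 238 in KO control and 231 in WT control, so WT ALDO stood above the other arrays. The log2 difference between KO ALDO and WT ALDO was -0.55 with it. The next-brightest probe set read 101, 56.3, 40.4 and 61.0 in the same order of arrays, where KO ALDO was highest and the same difference was 0.70. The remaining pair of probe sets read between 4.76 and 68.8 and also had KO ALDO above WT ALDO, by 1.83 and 0.80. These 3 probe sets were under the array median on all 4 arrays, and the brightest is of the type marked x_at, whose probes may also bind other transcripts, so no direction is given for Edn3.

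Ednrb, the endothelin B receptor, was higher under ALDO in both genotypes and differed little between genotypes. It read 1736 in KO ALDO, 1799 in WT ALDO, 539.6 in KO control and 556 in WT control. Both ALDO arrays lay above both control arrays with a wide gap, and within each treatment KO and WT were nearly equal. The log2 difference between ALDO and control was 1.66 in KO (3.15-fold on the intensity + 16 scale) and 1.66 in WT (3.17-fold). Among the 9097 brighter genes this had rank 3 from the top in KO and rank 6 in WT. Between KO and WT it was -0.05 under ALDO and -0.04 under control treatment, and the difference of the ALDO effects was -0.01.

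The other probe sets of Ednrb had the same split by treatment. The first of them read 355 in KO ALDO, 361 in WT ALDO, 133 in KO control and 165 in WT control, with ALDO against control differences of 1.32 in KO and 1.06 in WT. The second read 335 in KO ALDO, 266 in WT ALDO, 166 in KO control and 160 in WT control, with differences of 0.95 in KO and 0.68 in WT. All 3 had both ALDO arrays above both control arrays, and the size of the step varied with the probe set. Between genotypes under ALDO the 3 probe sets gave -0.05, -0.02 and 0.32.

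Ednrb and Adm were the 2 of 8 brighter genes here that were 2-fold or more higher under ALDO, in KO (beside 0.572% of all brighter genes) as in WT (beside 0.33%). At 1.5-fold, 4 of 8 were higher in KO (beside 3.43%), with Ramp3 and Ece1 added. In WT 3 of 8 were (beside 2.04%), with Edn3 added (0.82, against 0.03 with the mean of its probe sets). Both control values of Edn3, 231 in WT and 238 in KO, lay under the low end of the brighter genes. Edn3 was thus among the 8 only through its ALDO arrays, and nothing is read from its being counted. None of the 8 was lower by 1.5-fold or more under ALDO in KO (beside 1.36%) or in WT (beside 1.6%), or in KO against WT under ALDO (beside 2.42%) or control treatment (beside 1.51%). Ramp1, the dim gene, passed 1.5-fold in none of these comparisons with its brightest probe set. With the mean of its probe sets it passed that size under ALDO in KO (0.85) and in KO against WT under control treatment (-0.79).

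Counting all 9 genes whatever their brightness, 9 of 9 were above 0 under ALDO in KO, as were 53.8% of the 18193 genes, and 8 of 9 in WT, as were 51.8%. The median log2 difference of the 9 was 0.41 in KO and 0.35 in WT, beside 0.03 and 0.01 for all genes. Averaging all probe sets of a gene moved these medians to 0.85 in KO and 0.05 in WT. It put Calcrl below 0 in both genotypes and Ramp1 below 0 in WT (-0.06), so the count above 0 in WT was lower with it. The 0.85 is the averaged value of Ramp1, whose dimmest probe set read 49.4 in KO ALDO and 1.37 in KO control. Between genotypes 6 of 9 were above 0 under ALDO (55.4% of all genes) and 6 of 9 under control treatment (53.1%). Their median was 0.28 under ALDO, beside 0.04 for all genes, and 0.13 under control treatment, beside 0.02. The same averaging put the median at 0.45 under ALDO and turned that under control treatment to -0.05, and centring each array on its median put them at 0.14 under ALDO and 0.02 under control treatment.

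**Figure D2:**
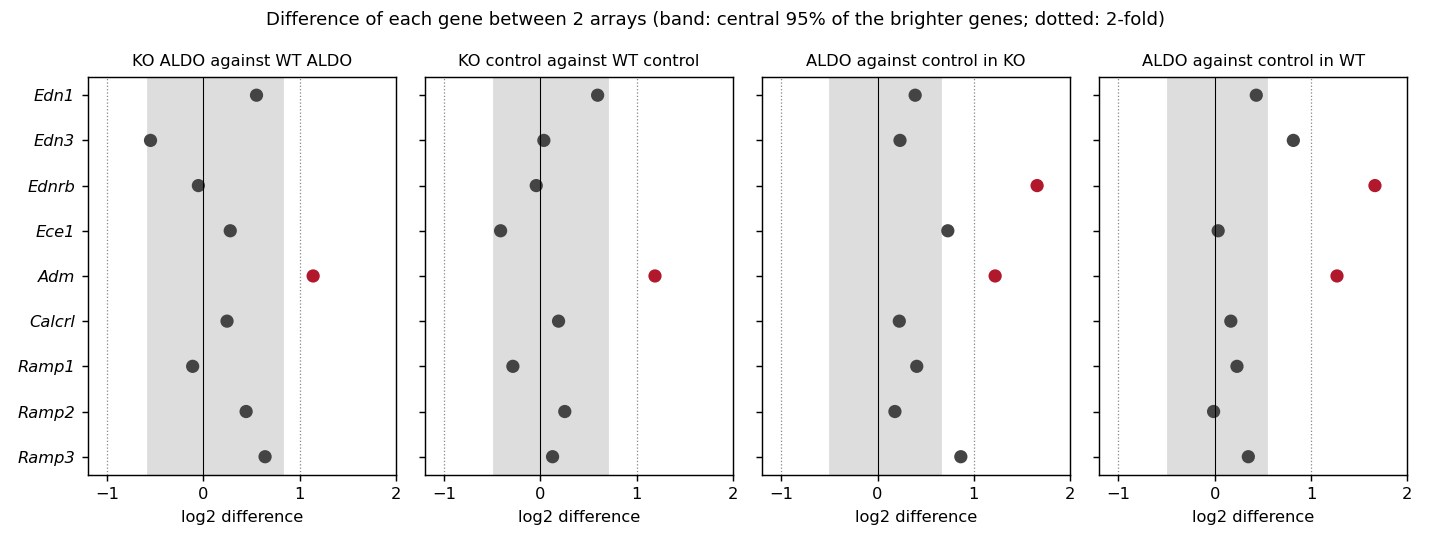
Each panel plots the log2 difference of the 9 genes in a comparison of 2 arrays, over a band that holds the central 95% of the brighter genes, with 2-fold dotted and genes past it in red. Adm lies beyond 2-fold in all 4 panels (1.14, 1.19, 1.22 and 1.27), and Ednrb in the 2 ALDO against control panels (1.66 in KO and 1.66 in WT).

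Ece1, the protease that releases active endothelin-1, was lowest in KO control. It read 1645 in KO ALDO, 1352 in WT ALDO, 986 in KO control and 1318 in WT control. KO ALDO was highest, and the 2 WT arrays were nearly equal. ALDO against control therefore differed by 0.73 in KO and by 0.04 in WT, and the difference of the effects was 0.69, past 1.5-fold, as it was for 3.35% of the brighter genes. KO against WT was 0.28 under ALDO and -0.41 under control treatment. The next probe set had the same order of arrays at lower signal, with 396 in KO ALDO, 312 in WT ALDO, 249.7 in KO control and 286 in WT control. Its difference of the effects was 0.51, and the dimmest probe set (21.4 to 51.9) gave 0.88. The 3 probe sets thus had KO ALDO highest and KO control lowest.

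Calcrl, the shared receptor of adrenomedullin and calcitonin gene-related peptide, differed little. It read 1433 in KO ALDO, 1205 in WT ALDO, 1223 in KO control and 1071 in WT control. Its 4 log2 differences lay between 0.17 and 0.25, with KO ALDO highest and WT control lowest. The other probe sets of Calcrl read 3.39 to 73.7 and did not follow this order, and the mean over all 3 put ALDO against control at -0.54 in WT and -0.23 in KO. That mean gives dim probes the same weight as the bright one.

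Ramp2, the partner that makes Calcrl an adrenomedullin receptor in most endothelial cells, read 1406 in KO ALDO, 1028 in WT ALDO, 1239 in KO control and 1037 in WT control. Both KO arrays were above both WT arrays, by 0.45 under ALDO and 0.25 under control treatment. Between ALDO and control it differed by 0.18 in KO and -0.01 in WT. Ramp2 had a single probe set of its own. A pair shared with the neighbouring gene Vps25 gave KO against WT differences of 0.04 and 0.10 under ALDO. Under control treatment that pair gave -0.04 and 0.10.

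Ramp3, the other partner for adrenomedullin, was highest in KO ALDO. It read 1289 in KO ALDO, 820.0 in WT ALDO, 700.3 in KO control and 640.2 in WT control. Both ALDO arrays were above both control arrays, and the gap between KO and WT was wider under ALDO (0.64) than under control treatment (0.13). ALDO against control differed by 0.87 in KO and 0.35 in WT, a difference of effects of 0.52. A single probe set carried these values. Ramp1 was dim, at 81.0 in KO ALDO, 88.7 in WT ALDO, 57.2 in KO control and 73.2 in WT control, under the array median on every array. Of its other probe sets, both dimmer still, the next kept that order and the last did not. The last read 49.4 in KO ALDO, 21.1 in WT ALDO, 1.37 in KO control and 51.0 in WT control.

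**Figure D3:**
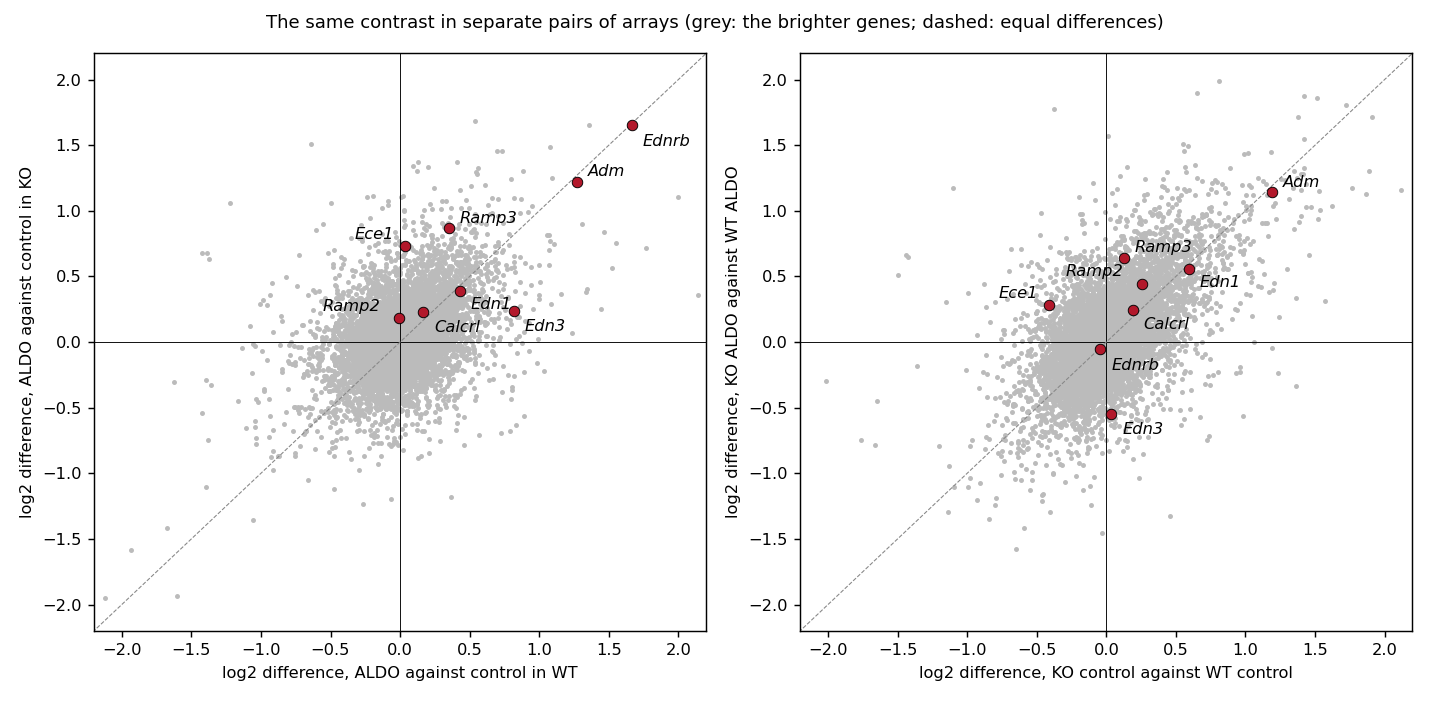
The left panel plots the ALDO against control log2 difference in KO (vertical) over that in WT (horizontal), and the right panel the KO against WT difference under ALDO over that under control treatment, for the brighter genes in grey and the 8 brighter genes of these systems in red, with equal differences dashed. The axes of a panel share no array. Ednrb and Adm lie on the dashed line at the upper right on the left, Ece1 and Ramp3 lie above it, and on the right Adm lies far from 0 while Ednrb lies at 0; 6 and 9 genes fall outside the axes.

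Markers of cell types that carry these genes were read beside them, since in bulk RNA more cells of a type and more RNA per cell cannot be told apart. All 16 endothelial markers were among the brighter genes. In KO against WT all 16 were above 0 under ALDO (median 0.45, beside 55.4% of all genes above 0) and under control treatment (median 0.41, beside 53.1%). Their summed intensity was 40931 in KO ALDO, 29084 in WT ALDO, 31835 in KO control and 24340.2 in WT control, the same order as Edn1. Between ALDO and control 13 of 16 were above 0 in KO (median 0.41, beside 53.8%) and 13 of 16 in WT (median 0.25, beside 51.8%). The genotype differences of Calcrl and Ramp2 were no larger than the KO against WT medians of these markers, and those of Edn1 were 0.55 and 0.59.

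Of 8 markers of vascular smooth muscle, pericytes and renin cells, 7 had a probe set and 6 were among the brighter genes. All 6 were above 0 under ALDO in KO (median 0.97, beside 53.8% of all genes above 0) and in WT (median 0.62, beside 51.8%). The summed intensity was 24864 in KO ALDO, 17719 in WT ALDO, 13995 in KO control and 12648 in WT control. Tagln, an actin-binding protein of smooth muscle, read 1995 in KO ALDO, 805 in WT ALDO, 719 in KO control and 478 in WT control. Its order was that of Adm, which not all of the list shared: Myh11, a smooth muscle myosin, was highest in WT ALDO (510 in KO ALDO and 552 in WT ALDO), and Mylk and Cspg4 were lower in KO control than in WT control. In KO against WT, 5 of the 6 were above 0 under ALDO (median 0.66, beside 55.4% of all genes) and 4 of 6 under control treatment (median 0.30, beside 53.1%). The 8 mesangial markers (7 measured, all among the brighter genes) had medians between 0.19 and 0.44 in the 4 comparisons.

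Of 9 macrophage markers, all with a probe set, 5 were among the brighter genes. In KO against WT all 5 were above 0 under ALDO (median 1.23, beside 55.4% of all genes above 0) and under control treatment (median 1.51, beside 53.1%). Their summed intensity was 9587 in KO ALDO, 4555 in WT ALDO, 8897 in KO control and 4624 in WT control, higher in both KO arrays than in both WT arrays. The 7 collecting duct markers, of a segment where Ednrb is abundant, were all among the brighter genes, with a median of 0.32 in KO and 0.50 in WT under ALDO and a summed intensity of 11313 in KO ALDO, 14188 in WT ALDO, 10272 in KO control and 9847 in WT control. No marker was at 0 in these files. The part of any of these cell types in the values of Adm, Ednrb and Edn1 was not tested.

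Genes around the 9 were read from lists. Of 14 other ligands, processing enzymes and receptors, 12 had a probe set and 7 were among the brighter genes. At 1.5-fold none of the 7 was past it under ALDO against control in either genotype, or in KO control against WT control, where at most 3.83% of the brighter genes were higher and 1.6% lower. Gpr182, an endothelial receptor once described as an adrenomedullin receptor, was past it in KO ALDO against WT ALDO (0.59). Furin, a protease that makes the first cut of pro-endothelin, read 1086 in KO ALDO, 1465 in WT ALDO, 1118 in KO control and 1164 in WT control, lowest of the list under ALDO between genotypes at -0.43. Ackr3, which takes up adrenomedullin, was lowest of the 7 under ALDO in WT (-0.39), and Pam, which amidates adrenomedullin, was highest there (0.33). Of the genes of this list outside the brighter ones, Edn2 (-1.04) and Kel (-0.94) were lower than Ackr3 there.

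Of 24 genes of signalling below the endothelin receptors, 21 had a probe set and 18 were among the brighter genes. Under ALDO none of the 18 was past 1.5-fold in KO (beside 3.43% of the brighter genes higher and 1.36% lower) or in WT (beside 2.04% and 1.6%), with medians of 0.03 and 0.09. Nos3, the endothelial nitric oxide synthase that acts below the endothelin B receptor, read 680.2 in KO ALDO, 526 in WT ALDO, 500.0 in KO control and 384 in WT control. It had log2 differences of 0.43 under ALDO in KO and 0.44 in WT, the highest of the 18 in either. Nos3 is also among the 16 endothelial markers, whose medians under ALDO were 0.41 in KO and 0.25 in WT. In KO against WT, 2 of the 18 were higher by 1.5-fold or more under ALDO (beside 6.55% of the brighter genes) and 1 of the 18 was under control treatment (beside 3.83%). Between genotypes Itpr3, a receptor for inositol trisphosphate, was highest of the 18 under ALDO (0.83) and Plcb1, a phospholipase C, was lowest there (-0.56). Arrb2, a beta-arrestin, was highest between genotypes under control treatment (0.87). Of 20 genes of signalling below the adrenomedullin receptor, which raises cyclic AMP, 19 had a probe set, 14 were among the brighter genes and 0 of the 14 were past 1.5-fold in any of the 4 comparisons, near the shares of all brighter genes (at most 6.55% higher and 2.42% lower), with medians between -0.01 and 0.05. Pde3b, a phosphodiesterase, was highest under ALDO in WT (0.46), and Pde4b, another, was lowest there (-0.46) and in KO (-0.51).

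Adm is a hypoxia-inducible gene, so other such genes were read beside it. Of 15, 14 had a probe set and 12 were among the brighter genes. None of the 12 was past 1.5-fold in any of the 4 comparisons, where between 2.04% and 6.55% of the brighter genes were higher and between 1.36% and 2.42% lower by that size, so a count of 0 is near the background. Their medians lay between -0.05 and 0.08, and the part of hypoxia in the values of Adm was not tested. Slc2a1, a glucose transporter, was highest of the 12 in KO against WT (0.53 under ALDO and 0.35 under control treatment). The vascular growth factor Vegfa differed by -0.04 under ALDO and -0.23 under control treatment. Epas1, a hypoxia-inducible transcription factor of endothelial cells, had 4 differences between 0.23 and 0.25.

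The brighter genes among those known to respond to corticosteroid receptors were above 0 under ALDO, 10 of 10 in KO (median 0.27, beside 53.8% of all genes above 0) and 10 of 10 in WT (median 0.43, beside 51.8%). In KO against WT, 8 of 10 were above 0 under ALDO (median 0.29, beside 55.4%) and 8 of 10 under control treatment (median 0.52, beside 53.1%). Sgk1, a kinase induced by aldosterone, read 14065 in KO ALDO, 10325 in WT ALDO, 10820 in KO control and 7647 in WT control. It had the same order of arrays as Edn1, and its differences under ALDO were 0.38 in KO and 0.43 in WT. Cdkn1a, a cell cycle inhibitor, was highest of the list between genotypes (1.72 under ALDO and 1.38 under control treatment).

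**Figure D4:**
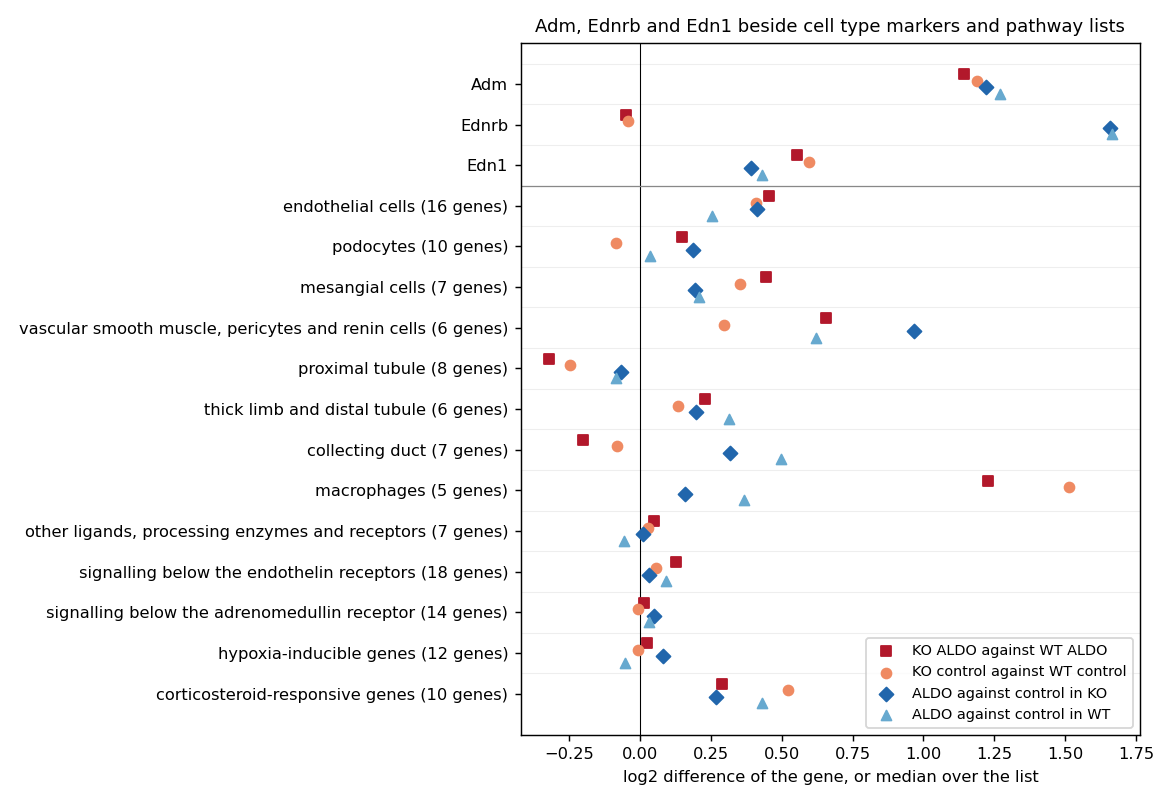
The log2 differences of Adm, Ednrb and Edn1 are plotted above the median log2 differences of the cell type marker lists and pathway lists, with a symbol for each of the 4 comparisons and the number of brighter genes of each list in brackets. The hypoxia and signalling lists lie near 0, the macrophage list lies high in KO against WT (1.23 under ALDO and 1.51 under control treatment), and the smooth muscle list lies high under ALDO (0.97 in KO and 0.62 in WT).

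The genes whose pattern over the 4 arrays was most like that of Adm were Mgp, Sparcl1 and Tagln, by the root mean square distance of log2 values centred on each gene's own mean. The distances were 0.18, 0.22 and 0.24, and 1 of the other brighter genes lay within 0.2. Mgp, matrix Gla protein, read 6436 in KO ALDO, 3413 in WT ALDO, 2697 in KO control and 1592 in WT control. Sparcl1, a secreted matrix-associated protein, read 1796 in KO ALDO, 1182 in WT ALDO, 953 in KO control and 469 in WT control. Over 4 arrays such a likeness is a description of these arrays alone.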

How the data were processed

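Total glomerular RNA was labelled by 3' in vitro transcription and hybridised to 1 array per group, per the labels' protocols. The authors deposited a linear intensity for each probe set, made with Affymetrix Expression Console, per the submitters' processing notes. Neither the algorithm, its background correction nor detection calls are named in the sources used here. An equal trimmed mean on every array shows scaling before deposit, so a shift of all transcripts together could not be seen.

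Intensities were taken as log2(intensity + 16), which understates changes of dim genes. In the platform annotation 34945 probe sets had 1 symbol, 932 had several and 9160 were not listed, beside 64 control probe sets. Differences are between 2 arrays, with no test. Groups came from sample titles. Every gene of these systems was named, with its probe sets beyond the brightest given by value, range or order of arrays. From the other lists, genes were named by rule from the 3 highest and the 3 lowest brighter ones in a comparison. The genes, lists and sizes counted were chosen with earlier results of these data known. Alternatives were other pseudocounts, quantile normalization, median centring, the mean of all probe sets, brighter genes alone and 1.5-fold. The steps were tested on simulated arrays. Python 3.11.15, NumPy 2.4.6 and pandas 2.3.3 were used. Promoter sequences are from RefSeq (GRCm38.p6).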

Additional observations from a re-analysis of the deposited data

Results flagged for a closer look

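For 3 genes the same contrast had opposite signs in separate pairs of arrays, and with 1 array per group none of these differences was tested. Ece1 was above 0 in KO ALDO against WT ALDO (0.28) and below 0 in KO control against WT control (-0.41), as in all 3 of its probe sets. Edn3 had -0.55 in KO ALDO against WT ALDO and 0.036 in KO control against WT control with its brightest probe set, and each of its dimmer probe sets had the opposite sign in both. Ramp2 had 0.18 under ALDO in KO and -0.011 under ALDO in WT, the second of which is close to 0.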

How the results depend on the processing

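The 9 genes and 5 comparisons gave 45 values, each recomputed under 5 settings, and 15 of these 225 repeats changed sign, 10 of them with the mean of all probe sets. None of the values past 1.5-fold changed sign under these settings, and the widest changes were those of Edn3 with that mean: its difference of the ALDO effects of -0.58, just under 1.5-fold and past it with a pseudocount of 1, quantile normalization and median centring (-0.61 to -0.64), became 1.04, its KO ALDO against WT ALDO difference of -0.55 became 0.69, its difference under ALDO in KO of 0.23 became 1.07, and that in WT of 0.82 became 0.03. Under these settings Adm ranged from 0.9992 to 1.31 over the 4 comparisons of arrays, Ednrb from 1.13 to 1.69 under ALDO in either genotype and Edn1 from 0.32 to 0.63. Counts past 2-fold moved as follows. Median centring, which put the median of the brighter genes at -0.13 in KO ALDO against WT ALDO and at -0.11 in KO control against WT control, left 0 genes instead of 1 in KO ALDO against WT ALDO. Averaging all probe sets gave 3 instead of 2 under ALDO in KO and 1 instead of 0 in the difference of the ALDO effects, with Edn3 added in both. At 1.5-fold the counts were 2 in KO ALDO against WT ALDO, 2 in KO control against WT control, 4 under ALDO in KO and 1 in the difference of the effects. No paired analysis was possible because each group has 1 array, and for the same reason no replicate could be left out.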

Other observations

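A pair of probe sets annotated to both Ramp2 and the neighbouring gene Vps25 was left out of the gene values. The brighter read 2207 in KO ALDO, 2144 in WT ALDO, 2196 in KO control and 2253 in WT control, and the other read 1556, 1453, 1681 and 1567 in the same order of arrays. Neither had the step between KO and WT of the probe set of Ramp2 alone. Their KO against WT log2 differences were 0.04 and 0.10 under ALDO, and -0.04 and 0.10 under control treatment.

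The genes nearest to Ednrb in pattern over the 4 arrays, by the distance used for Adm, were Tmem87a (0.12), Qars (0.23) and Pcsk6 (0.30), of which only the first lay within 0.2. Tmem87a, a membrane protein of the Golgi, read 1462 in KO ALDO, 1474 in WT ALDO, 454 in KO control and 566 in WT control. Qars, the glutaminyl-tRNA synthetase, read 3679 in KO ALDO, 3623 in WT ALDO, 1301 in KO control and 1705 in WT control. For Ramp3 the nearest was Cavin1, a component of caveolae, at 0.01, with 1329 in KO ALDO, 853 in WT ALDO, 719.6 in KO control and 653 in WT control, among 386 genes within 0.2. For Edn1, 804 genes lay within 0.2, the nearest being the Notch ligand Jag1, with 1219 in KO ALDO, 826 in WT ALDO, 947 in KO control and 617 in WT control.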
